A study of Mus musculus with 9 samples.

Results

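The genes described here were 43 mouse genes of mitosis and chromosome segregation, chosen by gene name from a list of cyclins, mitotic kinases, checkpoint proteins, kinetochore proteins, spindle motors, cytokinesis proteins and condensins. All 43 were found among the 25494 genes of the deposited expression table, and all 43 were among the 13159 genes with a mean of at least 10 over the 9 libraries. The choice used no expression value but was made with earlier results of these data known. RNA depleted of ribosomal RNA was sequenced from an immortalized culture of mouse BMDMs (bone marrow-derived macrophages) deficient in TTP. TTP, or tristetraprolin, is the RNA-binding protein encoded by Zfp36 and shortens the life of inflammatory mRNAs. Every group carried the TTP deficiency and the oncogenes hcmyc and hRasG12V, received 1 µg/ml doxycycline for 6 h and received 1 µg/ml lipopolysaccharide (LPS) for 1 h. The groups differed in the doxycycline-inducible vector, which expressed GFP alone (GFP), GFP fused to TTP (TTP) or GFP fused to a TTP in which the serines phosphorylated by the kinase MK2 were replaced (S52A and S178A, TTP-AA). Each group had 3 libraries, numbered 1 to 3. Each group was also a separately transduced line from the same immortalized culture, so the transgene and any other difference between lines cannot be told apart.

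The library values in the deposited table were fitted means. On the log2 scale each value was the sum of a gene term, a replicate-number term and a group term after 1 factor per library, with a largest deviation of 1.2e-14. The 3 values of a group therefore held no scatter of their own, a difference between groups was the same at every replicate number by construction, and no test of a difference was possible. Differences below are descriptions. They are log2 differences of fitted levels after scaling the libraries. The counting error, given for the members described in most detail, is the standard error that Poisson counting alone would leave, a lower limit of the true error. Genes are counted as past the fold where the difference was at least 0.32 on the log2 scale, which is 25% higher or 20% lower, and each such count is set beside the share of all 13159 genes past it. The sums of fitted counts ran from 21482954 in TTP replicate 1 to 102613526 in TTP-AA replicate 3. The median counting error of the members was 0.020 for TTP-AA against TTP, with a range from 0.0096 to 0.037.

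Cells that enter mitosis raise the mRNAs of these genes together, late in the cell cycle. Cyclin-dependent kinase 1 with its B-type cyclins starts mitosis, the kinetochore ties chromosomes to the spindle, the checkpoint delays separation until all chromosomes are attached, and the anaphase-promoting complex then releases the sister chromatids. Most of these genes are repressed in resting cells by the DREAM complex, which reads a promoter element known as the cell cycle homology region (CHR), often together with CCAAT boxes bound by NF-Y. In proliferating macrophage cultures such mRNAs report on dividing cells. In bulk RNA, fewer cells in mitosis and less mRNA per mitotic cell cannot be told apart.

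Promoter windows were searched for the letters of these elements. RefSeq promoter windows on GRCm38.p6, from 250 bases before to 50 bases after a start, were held for 36 of the 43 members (38 windows, because Ect2 and Prc1 each had a pair of overlapping windows). No window was held for Aurkb, Ccna2, Dlgap5, Incenp, Kif20a, Smc4 and Tpx2. Stretches of 30 bases are shown for the 7 members that were past the fold on the lower side in TTP-AA against TTP and for Ncapd2, one of the 3 members with the highest value in that comparison. They are written on the strand of the gene, with capitals marking the CHR letters TTTGAA, or TTCAAA where the same letters lie on the other strand. Positions count the first base of the start as 1.
Cenpf, chr1:189688067-189688096, minus strand: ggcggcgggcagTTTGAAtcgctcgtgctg
Aurka, chr2:172370521-172370550, minus strand: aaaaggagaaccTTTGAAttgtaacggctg
Hmmr, chr11:40733412-40733441, minus strand: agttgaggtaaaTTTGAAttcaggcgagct
Anln, chr9:22389161-22389190, minus strand: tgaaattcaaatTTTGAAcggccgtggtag
Ndc80, chr17:71526811-71526840, minus strand: gaaactttaaaaTTCAAAccgccttgggtt
Prc1, chr7:80294434-80294463, plus strand: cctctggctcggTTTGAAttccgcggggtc
Plk1, chr7:122159453-122159482, plus strand: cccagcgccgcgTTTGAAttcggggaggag
Ncapd2, chr6:125191692-125191721, minus strand: cagccgttgaggTTTGAAcagggaattgcg

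Cenpf carried its match at position 3, Hmmr at 9, Plk1 at 31 and Aurka at 33, all just downstream of the RefSeq start. Anln had a match at 29 and another on the other strand at 22. Ncapd2 had its match farther upstream of its RefSeq start, at -123. In the GENCODE annotation Ncapd2 begins at base 125191701, inside the stretch shown, so this distance depends on the annotation. The stretches were cut around matches, and of the other members on the higher side Kif15 also had a match, Nuf2 and Nusap1 had none, and Ccna2 and Smc4 had no window.

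The letters TTTGAA or TTCGAA, searched on both strands, were present in 30 of the 38 member windows (78.9%), against 19.2% of all 32851 RefSeq promoter windows and 14.1% of the 11891 windows of genes past the minimum mean. CCAAT was present in 73.7% of member windows and 37.4% of all windows. Both were present in 68.4% of member windows and 7.53% of all windows. The 42 CHR matches of the members stood at 39 places in the genome, since overlapping windows repeat 3 of them, and 28 of the 42 lay within 50 bases of the start. That was 73.7 matches per 100 member windows in that stretch and 3.84 per 100 windows of genes past the minimum mean. The median position was -18.5 for CHR matches and -78 for the 65 CCAAT matches. No CHR match was found in the windows of Birc5, Ccnb1, Cenpe, Mad2l1, Ncaph, Nuf2, Nusap1 and Pttg1.

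**Figure D1:**
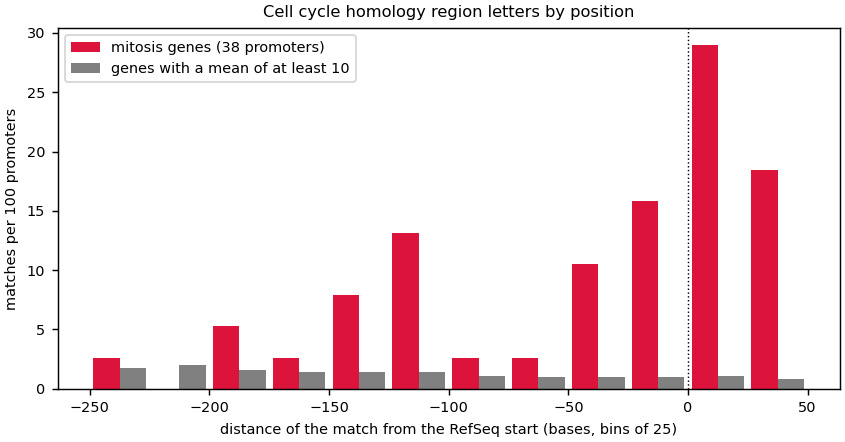
Matches to the CHR letters per 100 promoters (vertical axis) in bins of 25 bases of distance from the RefSeq start (horizontal axis), for the 38 windows of mitosis genes (red) and the windows of genes with a mean of at least 10 (grey). The tallest red bar, 28.9 per 100 promoters, covers the first 25 bases after the start, where the grey bar is at 1.06.

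The mitosis genes were well expressed in all groups. Their levels, as mean scaled fitted count per kilobase of merged exons, ran from 228 to 3154 with a median of 644, and all 43 stood above the median of 208 over 13088 genes with a length. The highest levels per kilobase were those of Ccnb2 (3154), a B-type cyclin, Aurka (2590), the kinase that builds spindle poles, Ccna2 (2057), the A-type cyclin of S phase and mitotic entry, and Cdc20 (1736), which activates the anaphase-promoting complex. The lowest were those of Cenpf (228), a protein of the outer kinetochore, Espl1 (234), the separase that cleaves cohesin, and Kif15 (238), a spindle motor. Together the 43 genes took between 0.451% and 0.568% of the fitted counts of the GFP libraries, between 0.468% and 0.588% of those of TTP and between 0.408% and 0.516% of those of TTP-AA. The 3 ranges overlapped because the replicate numbers differed, while at each number the share was highest in TTP and lowest in TTP-AA. The fitted values hold 1 group term per gene, so the repeat of this order is not independent evidence.

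Macrophage markers were expressed in every group. All 8 macrophage markers passed the minimum mean, with Lyz2 the highest, and their summed scaled level was 585568 to 811841 in GFP, 487783 to 668781 in TTP and 661156 to 912066 in TTP-AA. None of the markers of fibroblasts, T cells, B cells or epithelium in the table passed, and 1 neutrophil marker, Camp, did at a mean of 13.7. In TTP-AA against TTP, 6 of the 8 macrophage markers were higher and 2 lower (50% of all genes were lower), with a median of 0.21. Emr1 at 1.44, Lyz2 at 0.47 and Spi1 at 0.41 were past the fold on the higher side, beside 16% of all genes. Ptprc at -0.33 was past it on the lower side, beside 12.1%. In TTP against GFP 6 of the 8 were lower and 2 higher, with Emr1 at -0.76. In TTP-AA against GFP 6 were higher and 2 lower, with Emr1 at 0.68. The part of these differences in the results below was not tested. Zfp36, the gene supplied by both TTP vectors, had fitted means of 1303 in GFP, 1332 in TTP and 2109 in TTP-AA. It thus stood 0.03 above GFP in TTP and 0.69 above GFP in TTP-AA. Since Zfp36 RNA does not set the TTP libraries apart from GFP, it does not check that label, and all directions below rest on the groups as labelled. Whether reads of the transgenes were counted was not stated.

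The first comparison set the mutant against the wild-type protein, TTP-AA against TTP. Most of the mitosis genes were a little lower in TTP-AA: 37 of 43 had a lower fitted level (50% of all genes were lower) and 6 a higher one. The member median was -0.20, a level of 0.873 of that in TTP, with the middle part of the members between -0.29 and -0.06, against a median of 0.00 for all genes, whose middle part ran from -0.18 to 0.20. The member median stood at percentile 23.5 of all genes. The lowest members were Cenpf, Aurka, Hmmr, Anln, Ndc80, Prc1 and Plk1, and the 6 on the higher side were Nusap1, Nuf2, Kif15, Ncapd2, Smc4 and Ccna2.

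Past the fold, 7 members (16.3%) were lower, beside 12.1% of all genes, and no member was higher, beside 16% of all genes. The members just inside the fold were Prc1 and Plk1, both at -0.35, and those just outside were Aurkb at -0.32, Birc5 at -0.31 and Ect2 at -0.31. The fitted libraries of both groups did not overlap for 13 members, 12 of them lower in TTP-AA, beside 30.9% of all genes in either direction, close to the 30.2% of the members.

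**Figure D2:**
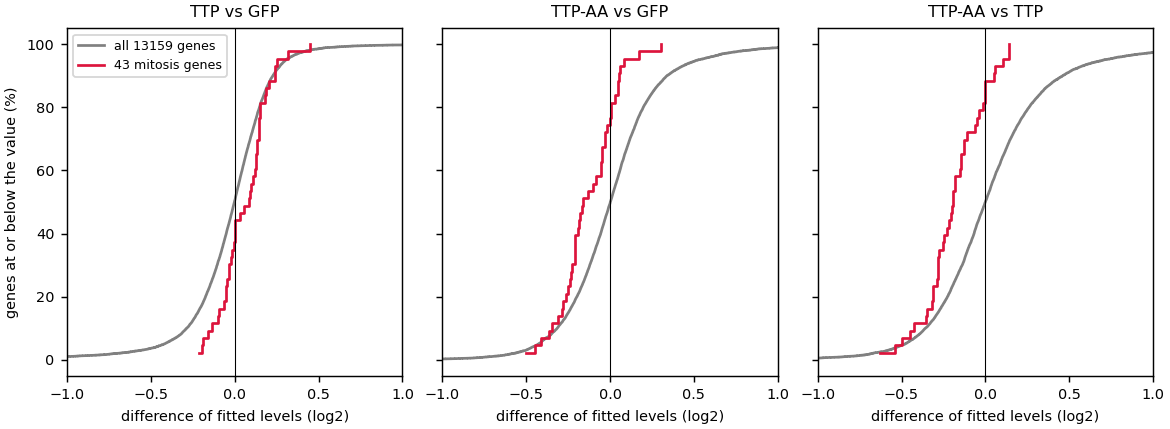
Cumulative share of genes (vertical axis, %) at or below each log2 difference of fitted levels (horizontal axis), for the 43 mitosis genes (red) and all 13159 genes past the minimum mean (grey), in the 3 comparisons. In TTP-AA vs TTP the red line crosses the midpoint at -0.20 and ends at 0.14, and in TTP vs GFP it crosses at 0.09.

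Of the 8 cyclins and mitotic kinases, 7 had the lower level in TTP-AA, with a group median of -0.10. Aurka, the spindle-pole kinase, had scaled fitted counts of 7174, 7251 and 6609 in GFP replicates 1 to 3, of 7847, 7874 and 7239 in TTP and of 5390, 5426 and 4963 in TTP-AA. All 3 TTP-AA values lay below all 6 others, while GFP and TTP overlapped. In fitted values this only restates that the group difference was larger than the range over replicate numbers, 0.13 for Aurka. The difference of TTP-AA from TTP was -0.54 (counting error 0.014), a level of 0.687. Plk1, the polo-like kinase of spindle formation and cytokinesis, was at -0.35 and Aurkb, the kinase of the chromosomal passenger complex, at -0.32. Ttk, the kinase that starts checkpoint signalling, was at -0.20.

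Ccna2, the A-type cyclin, had scaled fitted counts of 10302, 8142 and 8321 in GFP, of 9052, 7103 and 7323 in TTP and of 9981, 7857 and 8059 in TTP-AA. The groups overlapped, with replicate 1 the highest in each by construction of the fitted values. Its difference of 0.14 (counting error 0.013) was the highest of the 43, but it was 0.04 after each chromosome was centred on the median of its genes, below Kif15 at 0.08 and Ncapd2 at 0.06 in that setting. Ccnb2 and Ccnb1 were both at 0.00, within 2 counting errors of no difference. Cdk1 was at -0.01, but at -0.17 after centring by chromosome.

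All 7 checkpoint and anaphase genes were on the lower side in TTP-AA, with a median of -0.18, and none was past the fold. Bub1 and Bub1b, checkpoint kinases of the kinetochore, were at -0.29 and -0.28, and Mad2l1, which inhibits Cdc20, was at -0.25. Cdc20 itself was at -0.18 and separase (Espl1) at -0.15. Its inhibitor securin (Pttg1) was at -0.05 and Ube2c, the ubiquitin-conjugating enzyme of the anaphase-promoting complex, at -0.04.

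Of the 8 centromere and kinetochore genes, 7 were lower in TTP-AA. Cenpf had scaled fitted counts of 5070, 3074 and 3617 in GFP, of 5543, 3337 and 3960 in TTP and of 3586, 2166 and 2557 in TTP-AA. Its TTP-AA values were the lower ones at each replicate number and replicate 1 was high in every group. Both repeats follow from the fitted model, and the groups overlapped. The difference of -0.63 (counting error 0.020), a level of 0.647, was the lowest of the 43. Ndc80, which binds microtubules, was at -0.42, whereas Nuf2, its partner in the same complex, was at 0.05. Birc5, Incenp and Cdca8, which form the chromosomal passenger complex with Aurkb, were at -0.31, -0.15 and -0.06, so the 4 subunits were spread between -0.32 and -0.06. Cenpa, the centromeric histone, was at -0.22 with fitted libraries that did not overlap, and Cenpe, a kinetochore motor, was at -0.13.

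The 11 spindle motors and microtubule proteins had a median of -0.25, and 9 of them were lower in TTP-AA. Hmmr, a spindle-pole protein that binds Tpx2, had scaled fitted counts of 4324, 3548 and 3190 in GFP, of 4803, 3913 and 3549 in TTP and of 3408, 2786 and 2513 in TTP-AA. The TTP-AA values lay below all 3 TTP values and overlapped with GFP, which again only sets the differences beside a range of 0.44 over replicate numbers. The difference was -0.49 (counting error 0.020), a level of 0.710. Prc1, which bundles the midzone microtubules, was at -0.35, and its motor partner Kif4 was at -0.11. Tpx2, the activator of Aurka, and Kif11, the motor that pushes spindle poles apart, were both at -0.28. Dlgap5 was at -0.28, Kif20a at -0.25, Kif2c, which depolymerizes microtubules, at -0.20, and Kif23, of the central spindle, at -0.13. Nusap1 was at 0.00 and Kif15, a motor that can stand in for Kif11, at 0.05.

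Both cytokinesis genes were lower. Anln, which organizes the contractile ring, was at -0.45 (counting error 0.019) and Ect2, the exchange factor that activates RhoA at the cell equator, at -0.31 (counting error 0.022).

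Among the 7 chromosome structure genes, the condensin I subunits did not share 1 direction. Smc4 had scaled fitted counts of 7449, 5580 and 7059 in GFP, of 6794, 5053 and 6447 in TTP and of 7479, 5581 and 7084 in TTP-AA, and was the second highest of the 43 at 0.14 (counting error 0.014). Ncapd2 had 4771, 3779 and 3559 in GFP, 4622, 3635 and 3453 in TTP and 4976, 3926 and 3710 in TTP-AA, with a difference of 0.11 (counting error 0.018). After centring by chromosome Smc4 was at 0.04. In both genes the groups overlapped. The partner subunits Smc2, Ncapg and Ncaph were at -0.23, -0.19 and -0.18. Top2a, the topoisomerase that untangles sister chromatids, was at -0.21 and Mki67, which coats mitotic chromosomes, at -0.15.

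**Figure D3:**
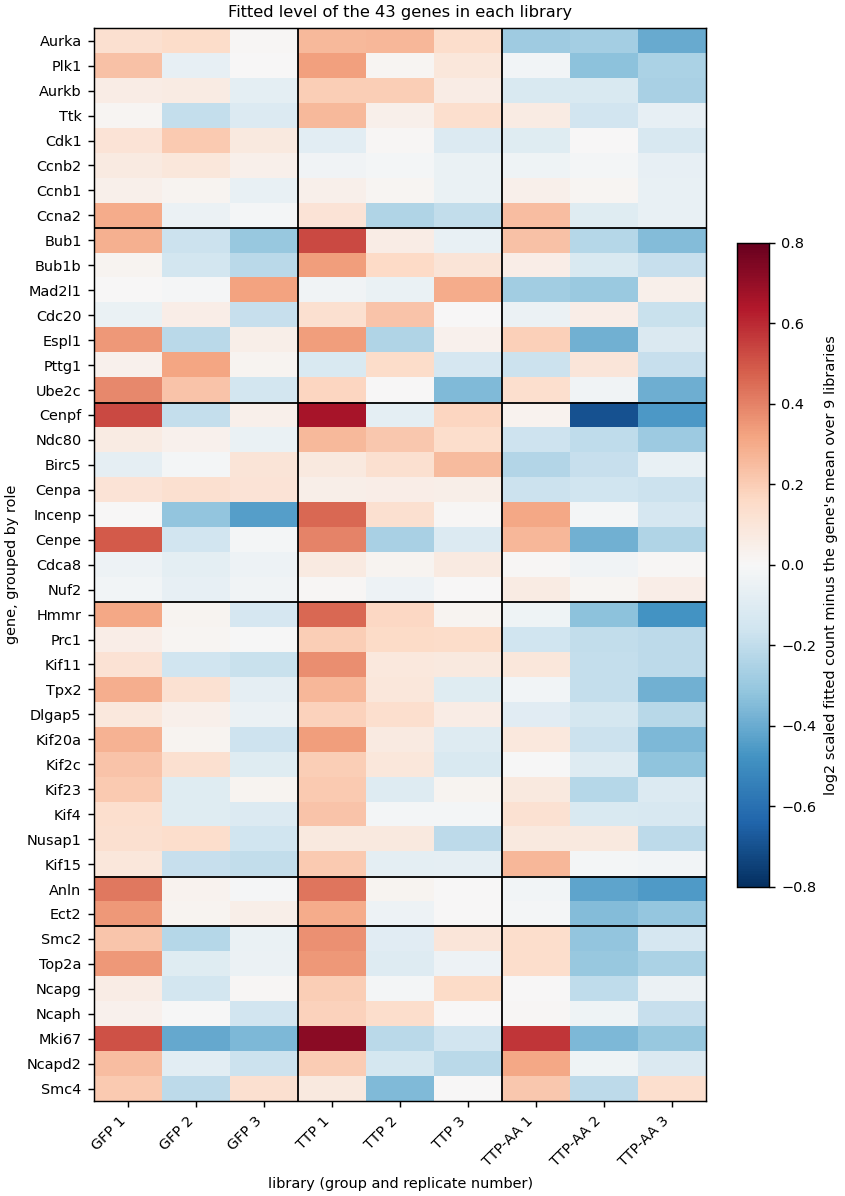
Scaled fitted level of each of the 43 genes (rows, grouped by role) in each of the 9 libraries (columns), as the log2 difference from the gene's mean over the 9 libraries, with red above and blue below it. TTP-AA replicates 2 and 3 hold the lowest values of Cenpf, Hmmr and Anln. Replicate 1 is the reddest column within each group for Mki67, an order that the fitted model repeats in each group.

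The comparison of TTP-AA with GFP asked how cells with the mutant differed from cells with no TTP. It shares the TTP-AA libraries with the comparison above and the GFP libraries with the one below. Here 33 of 43 members were lower in TTP-AA (49.6% of all genes were lower), with a member median of -0.16, at percentile 24.5 of all genes. Past the fold, 5 members (11.6%) were lower, beside 9.65% of all genes, and none was higher, beside 11%. The 5 were Cenpf at -0.50 (counting error 0.019), Anln at -0.45, Aurka at -0.41, Ect2 at -0.36 and Hmmr at -0.35. After centring by chromosome, Ect2 at -0.26 and Hmmr at -0.24 were no longer past the fold, which left 3. Fitted libraries did not overlap for 12 members, 10 of them lower, beside 24.9% of all genes. The highest member was Incenp, the scaffold of the passenger complex, at 0.30 (counting error 0.021), and the next was Kif15 at 0.17. Ccnb1 at 0.00, Cdc20 at 0.00 and Smc4 at 0.00 were level with GFP, while Cdk1 was at -0.21 and Ube2c at -0.25.

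The comparison of TTP with GFP asked how the wild-type protein differed from its absence. The members leaned slightly to the higher side in TTP, with 26 higher and 17 lower (50.4% of all genes were lower) and a median of 0.09, at percentile 68.7 of all genes. Past the fold, 1 member was higher, Incenp at 0.45 (counting error 0.022), beside 4.47% of all genes, and none was lower, beside 8.12%. Incenp had fitted means of 2643 in GFP, 3611 in TTP and 3263 in TTP-AA, so that it stood above GFP with either form of TTP. The checkpoint kinases followed, with Bub1b just under the fold at 0.31, Ttk at 0.24 and Bub1 at 0.24, and Kif11 was at 0.25. The lowest members were Ube2c at -0.21, Cdk1 at -0.19, Ccna2 at -0.19 and Pttg1 at -0.16. Fitted libraries did not overlap for 9 members (20.9%), beside 19.5% of all genes.

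**Figure D4:**
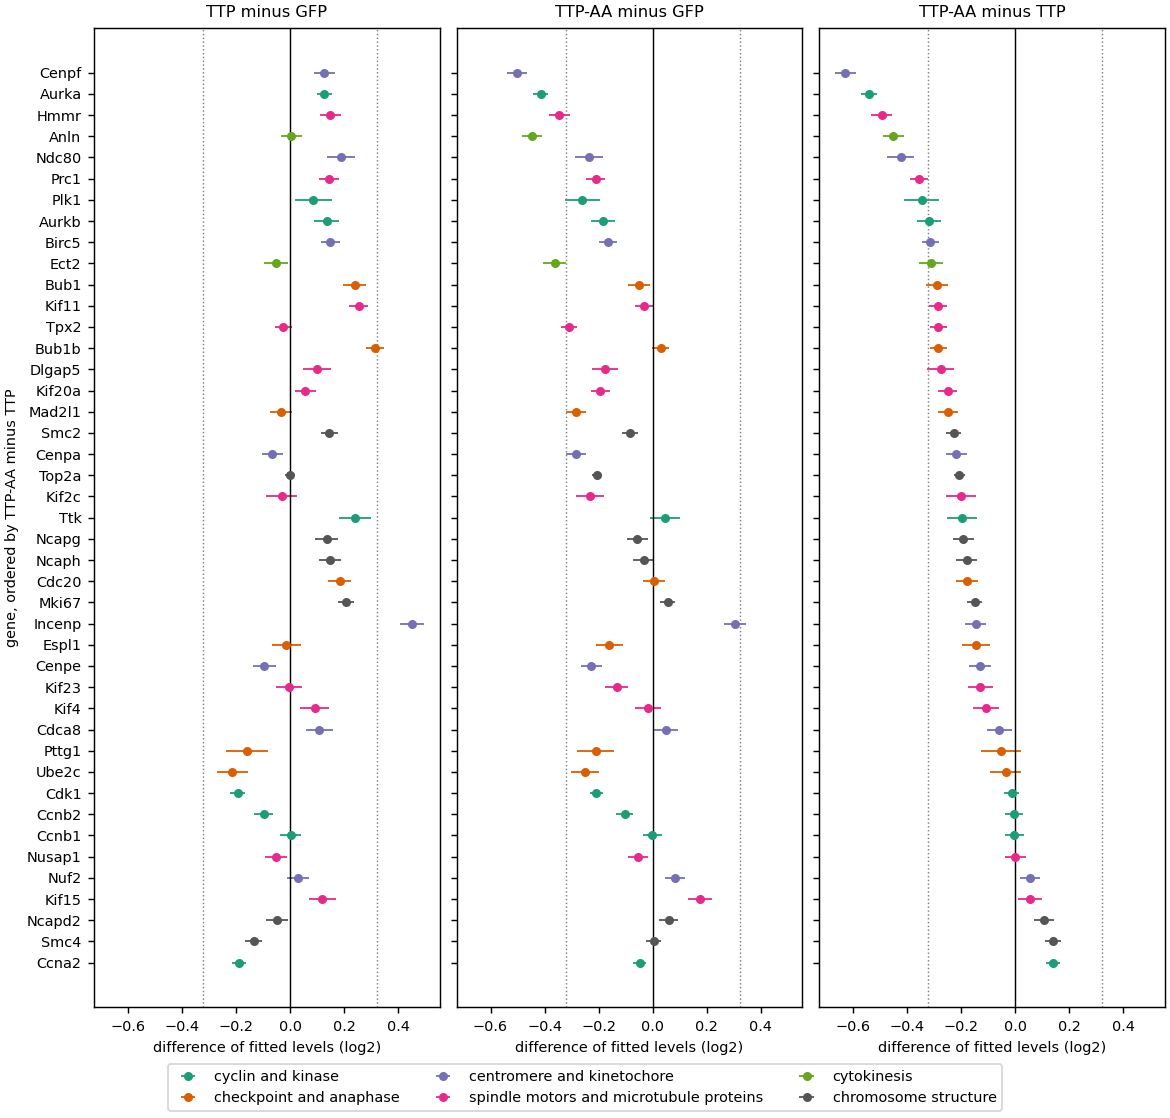
Log2 difference of fitted levels (horizontal axis) of each of the 43 genes (rows, ordered by TTP-AA minus TTP, coloured by role) in the 3 comparisons, with bars of 2 counting errors either side and dotted lines at 0.32 and -0.32. Most points lie left of 0 in both panels with TTP-AA, from -0.63 to 0.14 against TTP, and Incenp is the point past the right dotted line against GFP in TTP.

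Cdk1, Ccnb2 and Cenpa were lower than GFP in both TTP and TTP-AA with no overlap of fitted libraries. Cdca8 went the other way, higher than GFP in both with no overlap, at 0.11 in TTP and 0.05 in TTP-AA. In fitted means, no overlap says little more than that a difference was larger than the gene's range over replicate numbers. Cdk1 was at -0.19 in TTP and -0.21 in TTP-AA, Ccnb2 at -0.10 in both, and Cenpa at -0.07 and -0.28. The fitted libraries of Cenpa and Cdca8 also stood apart between TTP and TTP-AA. Among all genes, 19.5% had no overlap between TTP and GFP and 24.9% none between TTP-AA and GFP. The share with both was not counted. The median of all genes on chromosome 10, which holds Cdk1, was -0.13 in TTP and 0.02 in TTP-AA against GFP. After centring by chromosome, Cdk1 was at -0.06, Ccnb2 at -0.14 and Cenpa at -0.07 in TTP against GFP. Ccnb1, the B-type cyclin that pairs with Cdk1, was within 0.01 of equal in all 3 comparisons.

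The replicate number went with differences as large as those between groups. Relative to replicate 1, the member median was -0.21 in replicate 2, with 34 of 43 genes lower (47.8% of all genes), and -0.24 in replicate 3, with 40 lower (51.6% of all genes), where the medians of all genes were 0.02 and -0.01. Past the fold, 13 members were lower in replicate 2 (17.2% of all genes) and 12 in replicate 3 (15.2% of all genes). Mki67, the proliferation marker, was the most extreme at -0.93 and -0.87, followed in replicate 2 by Cenpf at -0.73, Cenpe at -0.65 and Espl1 at -0.57. Securin (Pttg1) was the highest in replicate 2 at 0.27, and Mad2l1 in replicate 3 at 0.32. The authors' model named library date as a term, and the replicate numbers fill that place exactly in the fitted values, with 1 library of each group per number.

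The range over replicate numbers was larger than the range over groups for 25 of 43 members, beside 60.0% of all genes, with member medians of 0.30 and 0.23. Mki67 had a range of 0.93 over replicate numbers and 0.21 over groups. At the other end, Prc1 had 0.05 and 0.35, Cenpa 0.01 and 0.28, Ndc80 0.12 and 0.42 and Aurka 0.13 and 0.54. The latter genes therefore differed between groups by more than between replicate numbers, whereas for Cenpf (0.73 and 0.63) and Anln (0.43 and 0.45) both ranges were of similar size.

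**Figure D5:**
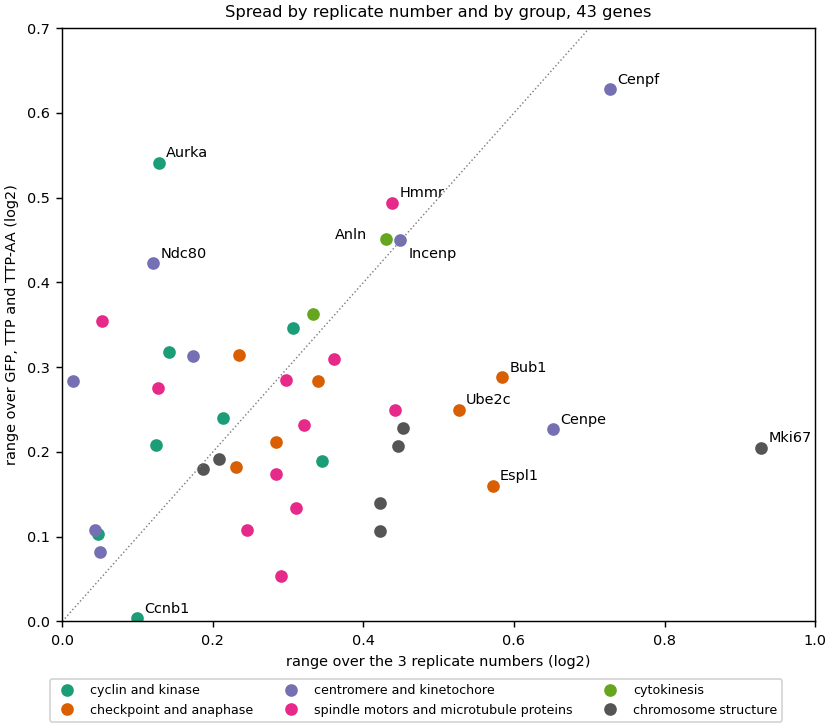
Range of each gene's fitted level over the 3 groups (vertical axis, log2) against its range over the 3 replicate numbers (horizontal axis, log2), with a dotted line where both are equal and colours for the roles. Aurka and Ndc80 lie far above the line, and Mki67, at 0.93 on the horizontal axis, lies far below it.

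Other genes of the same processes gave the surroundings of the 43. Of 25 further kinetochore genes, 19 had the lower level in TTP-AA when compared with TTP, with a median of -0.20. Past the fold, 5 were lower, namely Cenph at -0.46, Cenpl at -0.37, Casc5 at -0.36, Zw10 at -0.36 and Cenpm at -0.33, and Pmf1 was higher at 0.33. Of 11 genes of cohesin and condensin II, 10 were lower with a median of -0.19, and the cohesin subunits Smc3, at -0.81 (counting error 0.019), and Smc1a, at -0.33, passed the fold. Of 15 genes of the anaphase-promoting complex and its partners, 12 were lower with a median of -0.13, and Anapc2 at -0.40 and Anapc13 at -0.37 passed it. Of 19 further spindle and centrosome genes, 14 were lower with a median of -0.15, and 5 passed the fold, namely Kif20b at -0.48, Nek2 at -0.42, Spag5 at -0.40, Aspm at -0.39 and Kif14 at -0.34. Of 27 DNA replication genes, 21 were lower with a median of -0.15, and Cdc6 at -0.46 and Mcm2 at -0.34 passed it. All of these lists leaned to the higher side in TTP against GFP, where 50.4% of all genes were lower. The higher genes were 21 of 25 for the kinetochore, 10 of 11 for cohesin and condensin II and 13 of 15 for the anaphase-promoting complex. They were 15 of 19 for spindle and centrosome and 25 of 27 for replication, the latter with a median of 0.18. In TTP-AA against GFP the medians were -0.11, -0.14, -0.01, 0.00 and 0.04 in the same order. These lists hold no genes of the 43. Their shares past the fold in TTP-AA against TTP can be read beside the 12.1% of all genes that were lower.

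The 27 cell cycle regulators had a median of 0.08 in TTP-AA against TTP, with 17 higher and 10 lower. Past the fold, 3 of 27 were higher, beside 16% of all genes, and 1 was lower, beside 12.1%. The 3 were the inhibitor genes Cdkn1c at 1.68 (counting error 0.23, with a mean of 31.2 over the libraries) and Cdkn2c at 0.48, and Myc at 0.32. Lin9, a subunit of DREAM and of its activating counterpart, was the lower one at -0.41. The cells carry a human c-myc transgene, and whether its reads were counted for Myc was not tested. In TTP-AA against GFP, 2 of 27 were higher past the fold, Cdkn1c at 0.94 and Myc at 0.49, beside 11% of all genes. The 2 lower were Cdkn1a, the p21 inhibitor, at -0.47 and Lin9 at -0.39, beside 9.65%. In TTP against GFP, Mybl2, which activates mitotic genes with the Lin proteins, was the 1 higher at 0.33, beside 4.47%. The 2 lower were Cdkn1c at -0.74 and Cdkn2c at -0.37, beside 8.12%. In TTP-AA against TTP, Mybl2 was at -0.32, just short of the fold, and Foxm1 was at 0.19.

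TTP acts on AU-rich elements of 3′UTRs, and the letters of its site, TATTTAT, were counted in the 3′UTRs of the members on the strand of the mRNA. Sites are shown for Cenpf, Anln and Prc1, among the lowest members of TTP-AA against TTP, and for Ccna2, the highest, on GRCm38 with GENCODE M21, with capitals marking the letters.
Cenpf, chr1:189640925-189640947, minus strand: aactttaaTATTTATaatccctt
Anln, chr9:22332895-22332917, minus strand: ttgtgcagTATTTATatcttttc
Prc1, chr7:80316116-80316138, plus strand: aagcactaTATTTATtctgtctg
Ccna2, chr3:36565689-36565711, minus strand: agacatttTATTTATcaacttta

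The letters occurred in 11 of the 42 members with a 3′UTR (26.2%), close to the 27.4% of 11433 genes past the minimum mean, with a shorter median 3′UTR of 541.5 bases in the members against 960 bases. The other members with a match were Bub1, Ccnb1, Cenpe, Kif2c, Mad2l1, Ncapg and Nuf2. Mad2l1 had 4 matches in a 3′UTR of 6802 bases. No match was found in the 3′UTRs of Aurka, Hmmr, Ndc80 and Plk1, which were among the lowest members. In TTP-AA against TTP the median was -0.20 for the 11 members with the letters and -0.20 for the 31 without. Against GFP the medians were -0.21 and -0.16 in TTP-AA and 0.00 and 0.09 in TTP. For the CHR letters, the median in TTP-AA against TTP was -0.20 over 28 members with them and -0.09 over 8 without. For CCAAT it was -0.19 over 26 and -0.19 over 10. These medians are descriptions over unequal numbers of genes.

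Genes of some chromosomes were shifted together in these lines. On chromosome 19 the median of all genes in TTP against GFP was 0.18, and the members there were Incenp (0.45) and Kif11 (0.25). On chromosome 3 it was -0.20, and the members there were Ccna2 (-0.19), Smc4 (-0.14), Cenpe (-0.10) and Ect2 (-0.05). On chromosome 10 it was -0.13, where Cdk1 was at -0.19. After each chromosome was centred on its own median, no member was higher in TTP than in GFP past the fold, Kif11 was at 0.07, Ccna2 at 0.01 and Ect2 at 0.14. In TTP-AA against TTP the medians were 0.10 on chromosome 3, -0.10 on chromosome 19, -0.13 on chromosome 11 and 0.16 on chromosome 10.

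Some values may include reads of other genes, since strand use in the counting was not stated. Exons of Ccna2, Cdc20, Cdca8, Kif20a, Kif4, Ncapg, Nusap1, Plk1, Prc1 and Ube2c overlap exons on the other strand, from 53 shared bases in Cdc20 to 1271 in Kif20a. Exons of Ncapd2 and Top2a hold small RNA genes on their own strand. Ccnb1, Ccnb2 and Kif4 have named pseudogenes with which reads can be shared. Of the 7 members past the fold in TTP-AA against TTP, Plk1 and Prc1 have such an overlap, and Cenpf, Aurka, Hmmr, Anln and Ndc80 have none.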

How the data were processed

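Gene expression was measured by RNA-seq of rRNA-depleted total RNA in 9 libraries, and the sample titles gave each library's group and number. The authors aligned 50-base single-end reads with TopHat to GRCm38, counted them by Ensembl gene and ran DESeq2 1.6.3 with library date and condition as terms. TopHat2 2.0.12, Trim Galore and HTSeq are named in the submitters' processing notes. The deposited table of normalized counts holds, as a signal per gene and library, the fitted means of that model, with no value of 0 in 25504 rows and a lowest value of 0.0464. Whether fitted changes were shrunk was not stated. The authors also deposited 3 comparison tables with a mean count, log2 fold changes, standard errors and p-values, which list all 43 genes. None of their values were used.

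Repeated identifiers were counted once, which left 25494 genes. Libraries were scaled by the median of ratios over the 13159 genes with a mean of at least 10, and differences were taken between group means of log2 values with no pseudocount. The planned limma fit could not be used, since fitted means leave no residual. The counting error is that of Poisson counts of the fitted size, covers counting only, and takes no account of variation between cultures. Titles number the replicates but do not say that they are separate cultures. GENCODE M21 for mouse gave positions, exon lengths and, from the transcript with the longest coding sequence, 3′UTRs, and RefSeq gave promoters. Levels per kilobase used merged exons and had a length for 99.5% of genes. Scripts were tested on simulated data. Python 3.11.15, numpy 2.4.6, pandas 2.3.3 and matplotlib 3.10.9 were used.

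All 43 genes were described, with library values printed for the 3 lowest and 3 highest in TTP-AA against TTP and, from the other lists, the genes past the fold. The members and the lists were chosen with earlier results of these data known. Alternatives were other library scalings, other minimum means, centring by chromosome and a fold of 1.5.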

Additional observations from a re-analysis of the deposited data

How the results depend on the processing

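The settings were library-total and upper-quartile scaling, no filter, a minimum mean of 50 and centring by chromosome. Under each, the member medians kept their direction and stayed within the spread over replicate numbers, an SD of 0.14. That SD was larger than the member median of 0.09 in TTP against GFP, so staying within it is no sign of stability. Members lower in TTP-AA than in TTP numbered 34 to 38 under these settings, those lower in TTP-AA than in GFP 32 to 35, and those lower in TTP than in GFP 12 to 19. The number higher in TTP than in GFP past the fold was 2 with no filter, 0 after centring by chromosome and 0 at a fold of 1.5, in place of 1. The number lower in TTP-AA than in GFP was 3 after centring by chromosome and 0 at a fold of 1.5, in place of 5. The number lower in TTP-AA than in TTP was 1 at a fold of 1.5, 9 under library-total scaling, 10 with no filter and 8 after centring by chromosome, in place of 7, and with no filter 6 were lower in TTP-AA than in GFP. The stricter fold lowers these counts by construction. Library-total scaling and no filter moved all genes of a comparison alike, so members just short of the fold passed it. In TTP-AA against TTP these were Aurkb at -0.32 and Birc5 at -0.31, and with no filter also Ect2 at -0.31. For centring by chromosome the cause was not tested. Of 645 single-gene values over these settings, 24 moved by more than 1 SD over replicate numbers. Centring by chromosome accounted for 15 of them and left 114 values within 1 SD. The other scalings and minimum means shift every gene of a comparison by the same amount, at most 0.024. They could therefore hardly move single genes, and their small effect is no sign of stability. A sign changed in 32 of the 645, none of them past the fold. Of these, 12 were after centring by chromosome, among them Ccna2 (-0.19 to 0.01), Smc4 (-0.14 to 0.06), Cenpe (-0.10 to 0.10) and Ect2 (-0.05 to 0.14) in TTP against GFP, and the other 20 had values of 0.013 or less in size. No scaling moved the median of all genes by more than 0.03. No paired analysis was possible because the library values are fitted means that already contain the replicate number as a term and leave no residual, and leaving out each library was not run for the same reason. Depth does not limit the comparison of these abundant genes, whose counting errors were 0.038 or less, but the spread between cultures is not in the values.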
